A study of Mus musculus with 12 samples.

Results

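The liver builds fatty acids from sugar and stores them as triglyceride, and 30 genes of this route are described here across 4 groups of mouse livers. They were taken by name, as the regulators, enzymes, carriers and lipid droplet proteins of fatty acid and triglyceride synthesis. All 30 were present among the 24421 genes of the deposited count table, and all 30 were among the 13880 genes with enough counts to test. In a fed liver, pyruvate enters mitochondria, citrate leaves them, and citrate is split in the cytosol into acetyl-CoA, which acetyl-CoA carboxylase and fatty acid synthase turn into palmitate. Desaturases and elongases then reshape palmitate and the dietary polyunsaturated fatty acids, and acyltransferases attach the products to glycerol. Insulin, through the transcription factor SREBP-1, and sugar, through ChREBP, drive most of these genes, while fasting lowers them and many follow the time of day.

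RNA was sequenced from liver tissue free of tumour from male mice at 4 months of age. The strains were LiK and LiKM, and each was fed either a normal diet or a diet with 0.06% ACR given from 5 weeks of age, with 3 mice in each of the 4 groups. The labels name the strains but list no alleles, so alleles common to both strains are not given here. By what is known of the study, LiKM differs from LiK in a loss of Mdm2, which holds p53 in check, aimed at hepatocytes, and ACR is the acyclic retinoid.

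Library totals ran from 10124813 to 18647156 counts. Levels are given as CPM, counts as a share of the library after TMM scaling, and values of 3 mice are listed in the order of their replicate numbers. Mdm2 stood at 21.6 to 25.8 CPM in the 6 LiK libraries and at 29.0 to 67.2 in the 6 LiKM libraries, and a count over the whole gene does not check a deletion of some exons. Alb, the defining product of hepatocytes, lay between 65979 and 130942 CPM in every library. Of 8 fat cell markers 2 had enough counts to test, and the summed level of the 8 was 15.5 to 28.2 CPM. The defining markers Lep, Plin1 and Adipoq were at 0 in 12, 11 and 8 of the 12 libraries, and LiK normal 2 had 1 of the 8 markers at 0 where the other libraries had 3 to 6. Libraries also differed in clock genes. The clock output gene Dbp stood at 25.6 to 35.9 CPM in LiK on the normal diet against 136 to 139 on ACR, and the clock repressor Per2 was low in LiKM normal 3 and LiKM ACR 3, at 34.9 and 8.54 CPM against 97.7 to 147 in the other LiKM mice. Neither the hour of collection nor the feeding state is stated in the labels used.

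Scd1, the stearoyl-CoA desaturase of liver, was by far the most abundant member per length of transcript. In LiK on the normal diet its mean was 5459 CPM per kilobase of exon, followed by Thrsp at 964, Fads2 at 514 and Fasn at 491. At the other end stood Dgat1 at 6.0 and the lipid droplet gene Cidec at 3.18 CPM per kilobase. Scd1 and its close copy Scd2 had values that were not whole in 12 of 12 libraries, as arises when reads are shared between genes, so the split between them is uncertain.

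**Figure D1:**
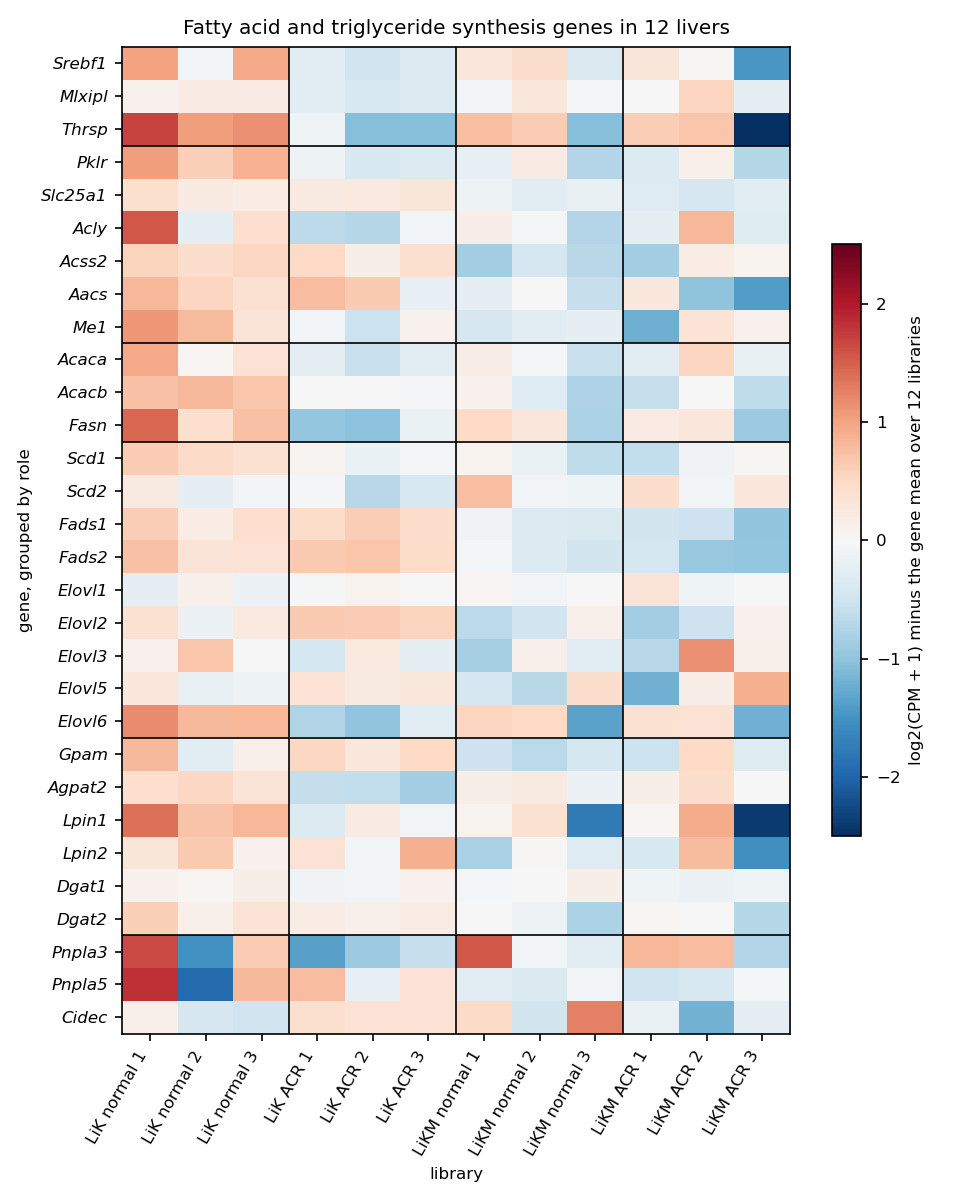
Each cell shows the log2(CPM + 1) of a gene in a library minus the mean of that gene over the 12 libraries, on the colour scale to the right, with genes grouped by role from regulators to lipid droplet. LiK normal 1 was the highest of the 12 libraries for 18 of the 30 genes, and Lpin1 is lowest in LiKM normal 3 and LiKM ACR 3, with Thrsp lowest in LiKM ACR 3.

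The promoters of 4 members that part the groups in different ways are shown so that their letters stand beside the values that follow. They are the 130 bases before the transcript start of Fasn, Agpat2, Lpin1 and Slc25a1, 5′ to 3′ on the strand of the gene, from RefSeq on GRCm38.p6. All 4 genes lie on the minus strand. Fasn is at chr11:120824548-120824677, Agpat2 at chr2:26604418-26604547, Lpin1 at chr12:16610967-16611096 and Slc25a1 at chr16:17928220-17928349. Capitals mark CCAAT on either strand, the letters that the factor NF-Y binds beside SREBP-1 on many lipogenic promoters.
Fasn: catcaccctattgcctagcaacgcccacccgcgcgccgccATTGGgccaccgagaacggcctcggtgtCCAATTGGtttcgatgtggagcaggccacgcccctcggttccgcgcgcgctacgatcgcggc
Agpat2: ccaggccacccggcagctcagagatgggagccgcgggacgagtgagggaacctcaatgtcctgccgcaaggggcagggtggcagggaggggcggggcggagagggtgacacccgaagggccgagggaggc
Lpin1: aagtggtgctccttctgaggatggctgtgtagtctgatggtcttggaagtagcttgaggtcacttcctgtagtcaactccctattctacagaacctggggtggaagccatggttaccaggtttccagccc
Slc25a1: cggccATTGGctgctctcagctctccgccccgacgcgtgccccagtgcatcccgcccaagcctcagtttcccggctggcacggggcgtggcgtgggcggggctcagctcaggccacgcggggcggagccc
Fasn holds 3 matches, of which 2 overlap as CCAATTGG, Slc25a1 holds 1, and the windows of Agpat2 and Lpin1 hold none. Of the members, 24 had a promoter in the RefSeq table. A gene was counted for a motif if any of its listed promoters held it in the 250 bases before the start. Genes with more listed starts thus had more sequence searched, and the shares are not corrected for that. By this count 15 of the 24 (62.5%) held CCAAT on either strand, against 37.5% of 27025 genes. CACGTG, the E-box, was found in 5 of 24 (20.8%) against 6.86%, in Mlxipl, Slc25a1, Elovl5, Lpin2 and Pnpla5. TCACNCCAC, a form of the sterol response element, was found in 1 of 24, Mlxipl (4.17%), against 1.22%, with both strands searched for each motif. In Mlxipl this match and the E-box lie before different starts. A match is only a match of letters.

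LiKM livers on the normal diet expressed the route at a lower level than LiK livers. Of the 30 genes, 8 were lower and 0 were higher by edgeR's quasi-likelihood test, with p-values adjusted over all tested genes and a threshold of 0.05. Over all tested genes 8.61% were lower and 13.2% higher in this comparison. The 8 were Slc25a1, Acss2, Pklr and Me1, which bring in acetyl-CoA, pyruvate and NADPH, then Acacb, and the desaturases Scd1, Fads1 and Fads2. The fitted difference was below 0 for 27 of the 30, with a median log2 fold change of -0.69, against 0.02 over all tested genes. In 16 of the 30 every LiKM mouse lay below every LiK mouse, which is 53.3%, against 19.4% of all tested genes. In 0 of the 30 did every LiKM mouse lie above, against 20.7% of all tested genes.

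None of the 3 regulators passed the test. Srebf1, which encodes SREBP-1, stood at 1394, 658 and 1332 CPM in LiK and at 839, 935 and 539 in LiKM, and the groups overlapped (log2 fold change -0.55, SE 0.40, edgeR adjusted p = 0.359). Mlxipl, which encodes ChREBP, had 390, 418 and 414 CPM in LiK and 343, 434 and 348 in LiKM, also with overlap. Thrsp, which encodes a nuclear protein linked to lipogenesis, had 2725, 1733 and 1873 CPM in LiK and 1416, 1315 and 403 in LiKM. All 3 LiKM values of Thrsp lay below LiK, but they differed so much among themselves that the log2 fold change of -1.01 had an interval from -2.77 to 0.75.

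The supply steps held 4 of the 8 lower genes. Pklr, the liver pyruvate kinase, had 1380, 1016 and 1229 CPM in LiK and 582, 775 and 404 in LiKM, a 2.06-fold lower level (log2 fold change -1.04, SE 0.25, edgeR adjusted p = 0.0136). Its groups were apart, though 22% of its exon bases overlap Hcn3 on the opposite strand and no source used here states the strand setting of the counting. Slc25a1, the carrier that moves citrate out of mitochondria, had 269, 241 and 233 CPM in LiK and 188, 170 and 180 in LiKM. That difference was small but even, 1.38-fold lower with an SE of 0.10 on the log2 scale (edgeR adjusted p = 0.00654). Acss2 makes acetyl-CoA from acetate, and its level was 280, 257 and 271 CPM in LiK and 104, 142 and 117 in LiKM. No mouse of one strain came near the other, and Acss2 was 2.22-fold lower (log2 fold change -1.15, SE 0.23, edgeR adjusted p = 0.00531). Me1, the cytosolic malic enzyme that yields NADPH, had 536, 434 and 313 CPM in LiK against 189, 207 and 214 in LiKM (edgeR adjusted p = 0.0439). Acly, which splits citrate, spread from 752 to 2625 CPM within LiK alone and did not pass (log2 fold change -0.91, edgeR adjusted p = 0.176). Aacs, which activates acetoacetate, was at 216 to 294 CPM in LiK and at 111 to 163 in LiKM (edgeR adjusted p = 0.14).

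At the committed step, Acacb, the carboxylase whose malonyl-CoA restrains entry of fatty acids into mitochondria, had 427, 453 and 417 CPM in LiK and 276, 205 and 150 in LiKM. It was 2.05-fold lower (log2 fold change -1.04, SE 0.21, edgeR adjusted p = 0.00592). Acaca, the cytosolic carboxylase, and Fasn, fatty acid synthase, overlapped between the strains. Fasn stood at 7657, 3773 and 4679 CPM in LiK and at 3990, 3452 and 1634 in LiKM (log2 fold change -0.83, SE 0.42, edgeR adjusted p = 0.177). The interval of that difference, -1.74 to 0.09, includes both no change and a large fall.

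Among the desaturases, Scd1 had 29119, 26463 and 24534 CPM in LiK and 20142, 16890 and 12105 in LiKM (edgeR adjusted p = 0.0458). Fads1, the delta-5 desaturase of polyunsaturated fatty acids, had 1925, 1433 and 1685 CPM against 1194, 990 and 988. Fads2, the delta-6 desaturase that acts before it, had 2010, 1520 and 1546 CPM against 1176, 954 and 878. Both were lower without overlap, Fads1 1.59-fold (SE 0.17 on the log2 scale, edgeR adjusted p = 0.0174) and Fads2 1.69-fold (SE 0.19, edgeR adjusted p = 0.0154). The genes are neighbours on chromosome 19 of mm10, Fads2 at 10062765 to 10101746 and Fads1 at 10182888 to 10196877. None of the 5 elongases passed. Elovl6, which extends palmitate, had 915, 711 and 723 CPM in LiK and 587, 571 and 159 in LiKM, so its strain difference had an SE of 0.49 (edgeR adjusted p = 0.248).

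None of the 6 triglyceride assembly genes passed, although all 6 fitted differences were below 0. Gpam, the mitochondrial acyltransferase of the first step, came nearest, with 581, 277 and 365 CPM in LiK and 230, 207 and 243 in LiKM (log2 fold change -0.85, SE 0.28, edgeR adjusted p = 0.0532). Lpin1, a phosphatidate phosphatase, had 723, 455 and 493 CPM against 292, 358 and 80.4, with an interval from -2.76 to 0.38. Dgat2, the main acyltransferase of the last step, had 802, 578 and 674 CPM against 533, 486 and 308 (edgeR adjusted p = 0.0705). Of the lipid droplet genes, the lipase-related Pnpla3 ran from 33.2 to 305 CPM within LiK and Pnpla5 from 4.75 to 75.9, and neither gene passed the test. Without LiK normal 2, the lowest library for both, Pnpla5 was lower in LiKM (log2 fold change -1.68, edgeR adjusted p = 0.00731). Leaving out the lowest LiK value raises the LiK level, so that call follows from the choice and supports nothing.

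**Figure D2:**
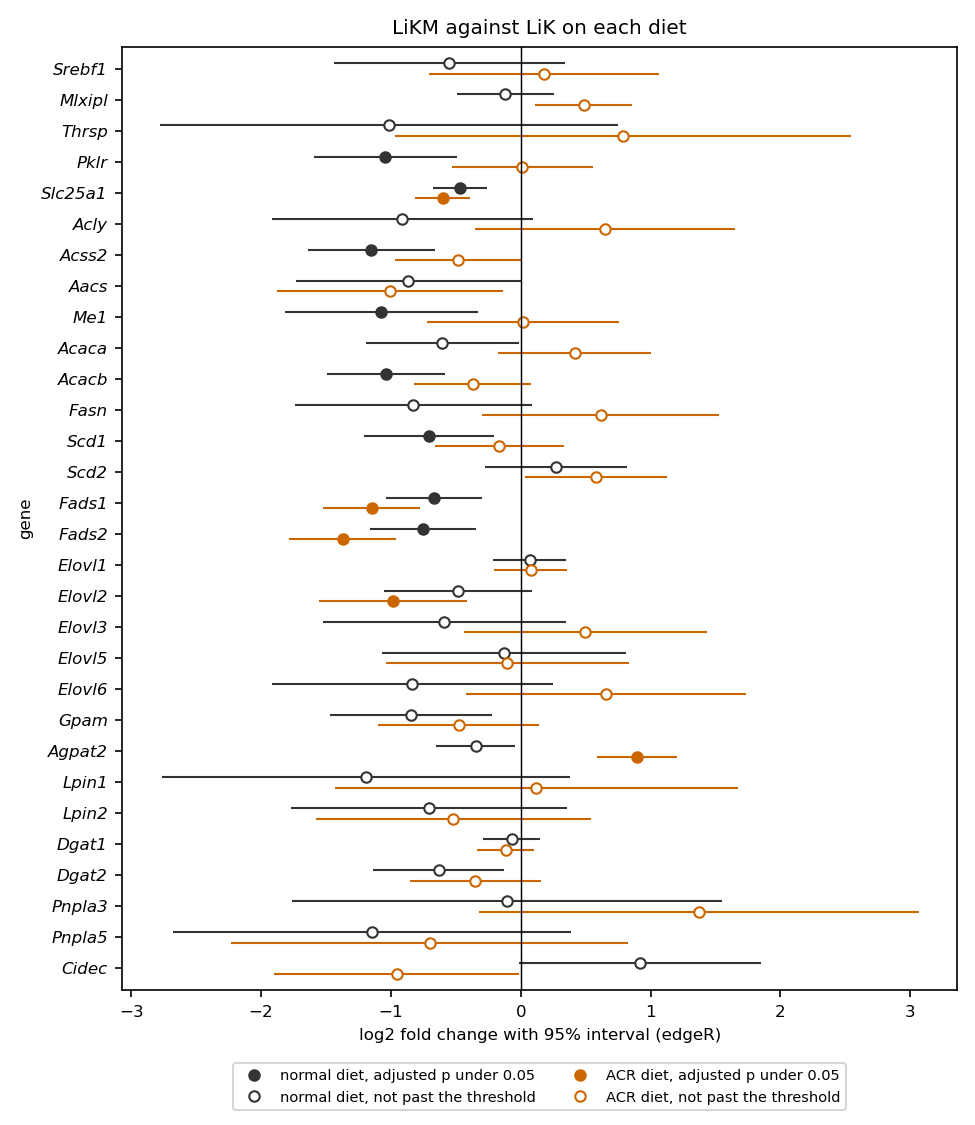
Points are log2 fold changes of LiKM against LiK for the 30 genes, on the normal diet (dark) and on ACR (orange), with 95% intervals from edgeR, and filled points have an adjusted p under 0.05. Filled points lie left of 0 for 8 genes on the normal diet and for 4 on ACR, and Agpat2 on ACR lies right of 0.

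Hepatocyte markers moved with these values. On the normal diet 5 of 19 tested hepatocyte markers were lower in LiKM and 19 of 19 had a fitted difference below 0 (median log2 fold change -0.58), with a summed level of 104936 to 121471 CPM against 143868 to 192015 in LiK. Of 15 biliary and progenitor markers 14 were higher, with a summed level of 784 to 1195 CPM against 139 to 179. In bulk tissue fewer hepatocytes and less RNA per hepatocyte cannot be told apart, and the part of cell make-up in the lower synthesis genes was not tested. When libraries were scaled to the hepatocyte markers, Pklr was the only one of the 8 still lower (log2 fold change -0.52, edgeR adjusted p = 0.0403), beside 0.281% of all tested genes. Mlxipl, Scd2, Elovl1 and Cidec were then higher, beside 37% of all tested genes, and the median of all tested genes rose to 0.59. With library size alone that median was 0.41, Pklr, Acss2 and Acacb were still lower beside 0.829% of all tested genes, and Elovl1 and Cidec were higher beside 34%. Relative to the median of all genes, the median of the 30 members was -0.70 with TMM, -0.70 with library size alone and -0.71 with hepatocyte scaling. A change of scaling shifts nearly all genes by the same amount. These values were therefore bound to be alike and tell nothing about cell make-up.

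The count of 8 also depended on how the mice were treated in the fit. LiKM mice with the same number on either diet deviated together, though no label states what a number shares. With that pairing as a block 15 members were called, 14 lower and 1 higher, against 15% of all tested genes lower and 15.6% higher. The block is shown because these same counts deviated together. Its adjusted p-values, here and below, can therefore be too small, and its calls are no separate support. Fasn, Elovl2, Elovl6, Agpat2, Lpin1 and Dgat2 joined the lower genes and Cidec was higher. Without LiK normal 1, the library with the highest values, 3 were called, Slc25a1, Acss2 and Acacb, all lower, beside 3.9% of all tested genes.

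On ACR the strains differed in 5 of the 30 genes, in both directions. Slc25a1, Fads1, Fads2 and Elovl2 were lower in LiKM and Agpat2 was higher. That is 4 lower and 1 higher of 30, beside 4.24% lower and 5.55% higher over all tested genes. The median log2 fold change of the members was -0.05, with 15 below 0 and 15 above, against 0.02 over all genes. Every LiKM mouse was below every LiK mouse for 7 members, which is 23.3% against 16% of all tested genes, and above for 2, Mlxipl and Agpat2, against 17.2%.

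Fads2 and Fads1 had the lowest p-values of the 4 lower genes. Fads2 had 1899, 1968 and 1658 CPM in LiK on ACR and 893, 627 and 617 in LiKM, 2.58-fold lower (log2 fold change -1.37, SE 0.19, edgeR adjusted p = 0.00322). Fads1 had 1747, 1945 and 1712 CPM against 913, 886 and 639, 2.22-fold lower (log2 fold change -1.15, SE 0.17, edgeR adjusted p = 0.00481). Over both diets the 6 LiKM livers lay below the 6 LiK livers for both genes. Elovl2, which elongates the long polyunsaturated products, had 2228, 2184 and 2090 CPM in LiK and 774, 995 and 1525 in LiKM (log2 fold change -0.98, edgeR adjusted p = 0.0376), and its call was lost in 9 of 23 alternative settings. Elovl5, which acts between Fads2 and Fads1, ran from 398 to 1693 CPM among the 3 LiKM mice and did not differ beyond that spread. Slc25a1 had 241, 244 and 254 CPM in LiK and 163, 153 and 172 in LiKM (log2 fold change -0.60, SE 0.10, edgeR adjusted p = 0.00606). With hepatocyte scaling the Slc25a1 call was lost (log2 fold change -0.30, edgeR adjusted p = 0.348), while Fads1, Fads2 and Agpat2 passed in all 23 alternatives.

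Over both diets together, 4 members had all 6 LiKM livers below all 6 LiK livers, namely Slc25a1, Fads1, Fads2 and Dgat2, which is 13.3% against 6.18% of all tested genes. For Slc25a1 the ranges were 153 to 188 CPM in LiKM and 233 to 269 in LiK. For Dgat2 they were 308 to 551 and 578 to 802 CPM. No member had all LiKM livers above all LiK livers, against 7.08% of all tested genes.

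Agpat2, the acyltransferase that makes phosphatidic acid and whose loss in people causes a lack of body fat, was the called gene on the higher side. On ACR it had 111, 108 and 92.7 CPM in LiK and 186, 228 and 167 in LiKM, 1.86-fold higher in LiKM (log2 fold change 0.90, SE 0.14, edgeR adjusted p = 0.00574). On the normal diet it had 223, 241 and 208 CPM in LiK and 185, 194 and 150 in LiKM, so there all LiKM mice lay below (log2 fold change -0.35, edgeR adjusted p = 0.0984). The LiK mice on ACR stood lowest of the 4 groups, with no overlap with any of the other groups. Its promoter window, printed above, is one of the pair without CCAAT, and Lpin1 has the other. Cidec also had fitted strain differences of opposite sign, 0.92 on the normal diet and -0.95 on ACR, neither past the threshold (edgeR adjusted p = 0.145 and 0.177). With the LiKM pairing as a block both passed (0.74, edgeR adjusted p = 0.0272, and -1.07, edgeR adjusted p = 0.0113).

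**Figure D3:**
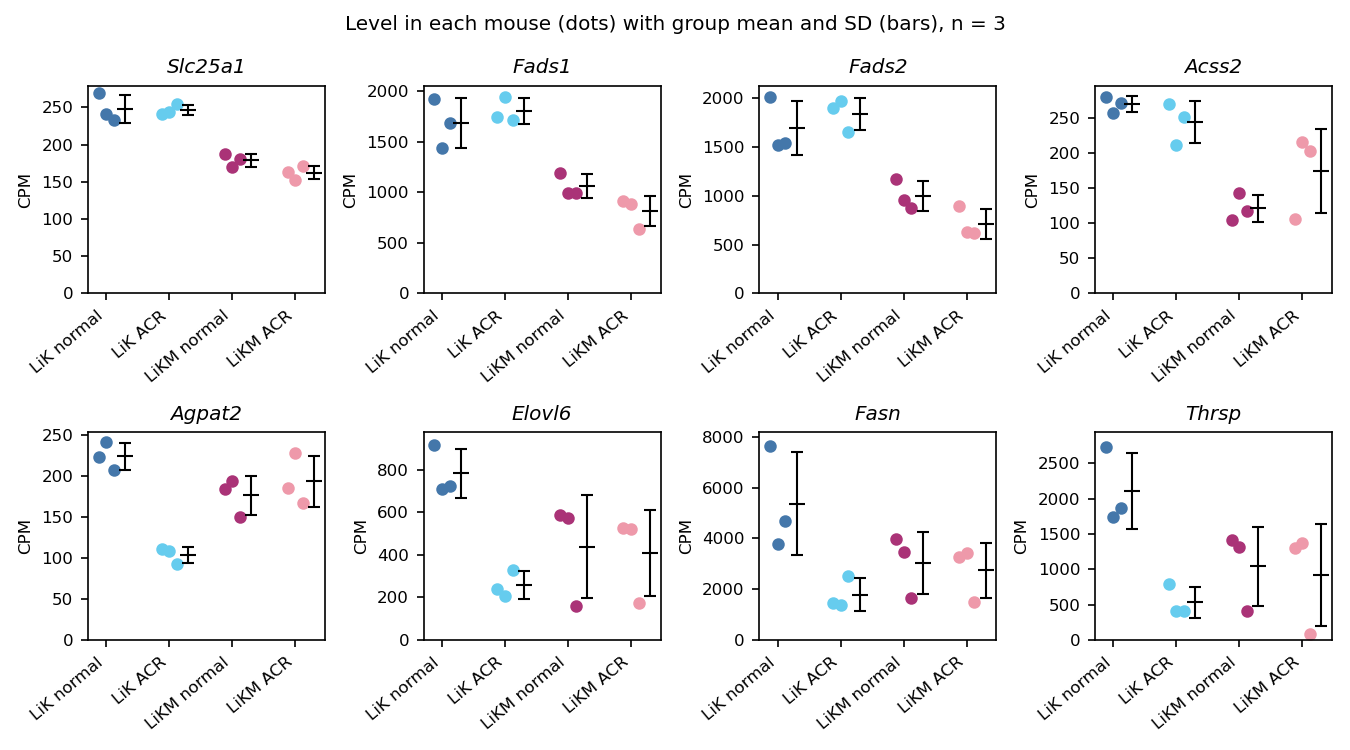
Dots are the CPM of a gene in each mouse and the bars beside them the group mean with SD (n = 3 mice), for 8 of the genes. Slc25a1, Fads1 and Fads2 separate the strains on both diets, Agpat2 is lowest in LiK on ACR, and in LiKM a single mouse per diet stands low for Elovl6 and Thrsp.

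With the LiKM pairing as a block, 9 members differed on ACR, 7 lower and 2 higher, against 9.31% lower and 8.51% higher over all tested genes. Acss2, Dgat2 and Cidec then joined the lower genes and Mlxipl the higher ones. Among the regulators, Mlxipl had 295, 278 and 284 CPM in LiK on ACR and 365, 525 and 310 in LiKM (log2 fold change 0.48, edgeR adjusted p = 0.0922 without the block and 0.011 with it). Thrsp had 788, 405 and 404 CPM in LiK and 1297, 1373 and 85.7 in LiKM, so its LiKM values lay on both sides of LiK. Elovl6 behaved alike, with 240, 205 and 331 CPM against 528, 521 and 175. On ACR, without the block, 3 of 19 clock genes were higher and 4 lower in LiKM, beside 5.55% higher and 4.24% lower over all tested genes. The part of the clock in the members' values was not tested.

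Marker lists also differed between the strains on ACR, where 5.55% of all tested genes were higher and 4.24% lower in LiKM. Of 15 biliary and progenitor markers 13 were higher and 1 lower in LiKM, with a summed level of 436 to 626 CPM against 141 to 311 in LiK. Of 19 hepatocyte markers 1 was lower, and 18 had a fitted difference below 0 (median log2 fold change -0.19), with summed levels of 139266 to 183786 CPM against 171943 to 185276. Of 20 cholesterol synthesis genes 8 were lower and 20 had a fitted difference below 0, with a median of -0.61. Their part in the members' values was not tested.

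Of the 30 members Agpat2 was the only one to pass the test for ACR against the normal diet in LiK mice. It fell 2.16-fold, from 223, 241 and 208 CPM to 111, 108 and 92.7 (log2 fold change -1.11, SE 0.14, edgeR adjusted p = 0.017), beside 0.0648% of all tested genes that were lower and 0.13% that were higher. Leaving out LiK normal 2, LiK normal 3, LiK ACR 1 or LiK ACR 3 ended that call, with edgeR adjusted p-values of 0.0737 to 0.0799. Of the 30 members 22 had a fitted difference below 0, with a median log2 fold change of -0.46 against 0.01 over all genes, and 12 had an unadjusted p under 0.05, as did 1953 of the 13880 tested genes. The LiK mice on the normal diet also stand in the strain comparison above, so the results of both are not independent. Without LiK normal 1 the members' median was -0.33, and 6 members had an unadjusted p under 0.05, as did 1533 of 14153 genes. With all mice, groups did not overlap for 12 members with all ACR mice lower, which is 40% against 14.6% of all tested genes, and for 2 with all ACR mice higher, against 13.4%.

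Among the 12 members without overlap were all 3 regulators, and 11 of the 12 did not pass the test. Srebf1 went from 1394, 658 and 1332 CPM on the normal diet to 569, 487 and 547 on ACR (log2 fold change -1.08, edgeR adjusted p = 0.278). Mlxipl had 390, 418 and 414 CPM and then 295, 278 and 284 (log2 fold change -0.51, edgeR adjusted p = 0.222). For Thrsp the values were 2725, 1733 and 1873 CPM against 788, 405 and 404, a log2 fold change of -1.99 with an interval from -3.80 to -0.18. In all 3 regulators the mice on ACR were below all mice on the normal diet. Fasn had 7657, 3773 and 4679 CPM and then 1440, 1387 and 2537, a fitted difference of 3-fold (log2 fold change -1.59, SE 0.42, edgeR adjusted p = 0.145). Elovl6 had 915, 711 and 723 CPM and then 240, 205 and 331 (log2 fold change -1.60, SE 0.50, edgeR adjusted p = 0.204). Pklr had 1380, 1016 and 1229 CPM and then 618, 516 and 527 (log2 fold change -1.13, SE 0.25, edgeR adjusted p = 0.102). Me1, Acaca, Acacb, Scd1 and Lpin1 were the other members without overlap, with log2 fold changes from -1.07 for Lpin1 to -0.53 for Scd1.

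Of the 30 members 8 had a fitted difference above 0, Fads1, Fads2, Elovl1, Elovl2, Elovl5, Gpam, Lpin2 and Cidec, and none of these passed. Fads1 and Fads2 had log2 fold changes of 0.10 (interval -0.27 to 0.47) and 0.12 (interval -0.28 to 0.53). Elovl2 had 1837, 1282 and 1676 CPM on the normal diet against 2228, 2184 and 2090 on ACR, higher in every mouse on ACR, but its log2 fold change of 0.44 did not pass (edgeR adjusted p = 0.471). Slc25a1 stood at 233 to 269 CPM on the normal diet against 241 to 254 on ACR (log2 fold change -0.01, interval -0.22 to 0.20). Cidec, which makes droplets larger, stood at 4.77 to 7.89 CPM on the normal diet against 9.39 to 9.73 on ACR, a difference that did not pass (edgeR adjusted p = 0.493).

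With the LiKM pairing as a block, 7 members were lower in LiK on ACR, against 2.91% of all tested genes. They were Agpat2, Pklr (edgeR adjusted p = 0.00167), Elovl6 (0.00167), Mlxipl (0.0137), Fasn (0.0169), Acacb (0.0183) and Lpin1 (0.0445). The block acts on LiKM libraries alone, so the fold changes in LiK stayed the same (Fasn -1.59 in both fits). What it changed for LiK was the estimate of spread that all groups share. Calls over all tested genes in this comparison went from 27 without the block to 701 with it. A fit of the 6 LiK libraries alone called 8, those 7 and Thrsp, against 3.62% of all tested genes lower.

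Values of other lists are set beside this diet comparison. Of 19 clock genes and of 14 fasting-induced genes 0 passed the test. Dbp did not overlap between the LiK diets, as given above, and Per2 stood at 81.3 to 114 CPM on the normal diet against 58.9 to 63.5 on ACR. The summed level of the fasting-induced genes was 6087 to 7242 CPM on the normal diet against 7884 to 8118 on ACR, but 4 of the 14 had a fitted difference below 0, the lowest that of G6pc (mean 889 CPM against 322). The summed level of 20 cholesterol synthesis genes, which SREBP-2 drives, was 2798 to 3422 CPM on the normal diet against 3957 to 4744 on ACR. Of those 20, 19 had a log2 fold change above 0, opposite in sign to Srebf1 and Fasn, although Stard4 alone passed the test. Summed hepatocyte markers overlapped, at 143868 to 192015 and 171943 to 185276 CPM. The part of collection time or feeding in the members' values was not tested.

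**Figure D4:**
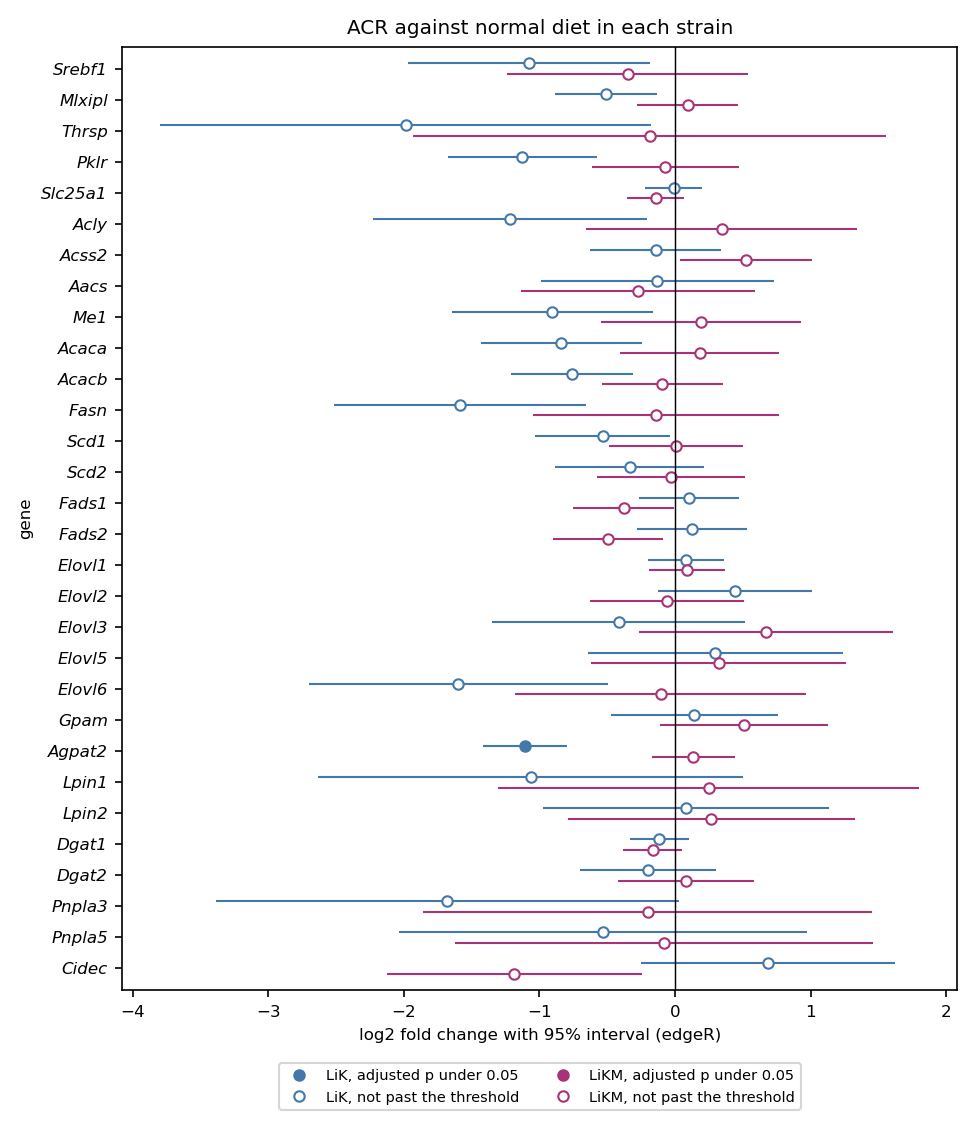
Points are log2 fold changes of ACR against the normal diet for the 30 genes, in LiK (blue) and LiKM (purple), with 95% intervals from edgeR, and filled points have an adjusted p under 0.05. Agpat2 in LiK is the only filled point, and the blue points of Srebf1, Thrsp, Pklr, Fasn and Elovl6 lie left of the purple ones.

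In LiKM mice no member passed the test for ACR against the normal diet. The count was 0 of 30 by edgeR and 0 of 30 by DESeq2, beside 0% of all tested genes by edgeR and 0.569% by DESeq2. At an unadjusted p under 0.05 were 4 members, and 1005 of the 13880 tested genes. The median log2 fold change of the members was -0.04 and 16 were below 0. The LiKM diets did not overlap for 2 members, Fads1 and Dgat1, both lower on ACR, which is 6.67% against 6.7% of all tested genes. They did not overlap with ACR higher for 0 members, against 3.94% of all tested genes. Fads1 had 1194, 990 and 988 CPM on the normal diet against 913, 886 and 639 on ACR (log2 fold change -0.38, interval -0.75 to -0.01). Fads2 had a log2 fold change of -0.49 (interval -0.90 to -0.09, edgeR adjusted p = 0.554). For Agpat2 the interval was -0.17 to 0.44. For Fasn it was -1.05 to 0.76 and for Thrsp -1.93 to 1.56. The changes fitted in LiK have errors of their own, and the LiK interval of Thrsp given above overlaps that of LiKM. Strains are compared by the difference of the diet effects, given below, which called neither Fasn nor Thrsp. Block by number, the count in LiKM was again 0, beside 0.0648% of all tested genes.

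The spread within LiKM had a shape of its own. Lpin1 had 292, 358 and 80.4 CPM on the normal diet against 287, 530 and 51.5 on ACR, low in the mice numbered 3 on either diet. Elovl6, Thrsp, Srebf1, Dgat2 and Fasn were also lowest of their group in those mice. Elovl5 went the other way, at 1245 and 1693 CPM in the mice numbered 3, the highest of each group, as did Elovl2 at 1538 and 1525 CPM.

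**Figure D5:**
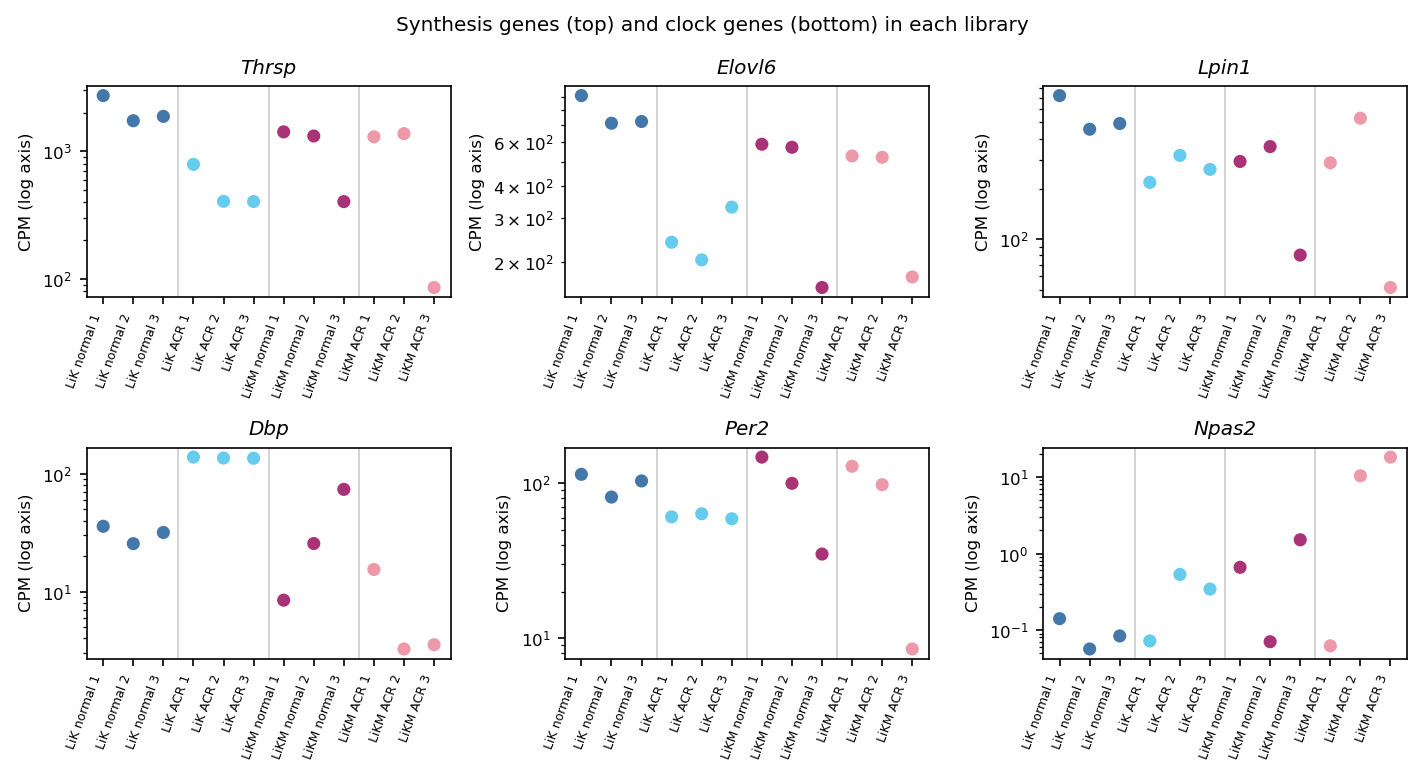
The upper row gives Thrsp, Elovl6 and Lpin1 and the lower row the clock genes Dbp, Per2 and Npas2, in CPM on log axes with a point for each of the 12 libraries. LiKM normal 3 and LiKM ACR 3 are low for the upper 3 genes within their groups and low for Per2. Dbp differs between them, at 74.0 CPM in LiKM normal 3 and 3.54 in LiKM ACR 3, and Npas2 reaches 10.4 and 18.2 CPM in LiKM ACR 2 and 3.

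Whether the diet acted differently on the strains was tested as the difference of the diet effects, LiKM minus LiK. No member passed, 0 of 30 by edgeR, beside 0.0072% of all tested genes. At an unadjusted p under 0.05 were 10 members, and 1593 of the 13880 tested genes. Agpat2 came nearest, with a difference of 1.24 on the log2 scale (SE 0.20, interval 0.81 to 1.68, edgeR adjusted p = 0.0784). DESeq2 called it (adjusted p = 4.81e-05) and it was its only call among the members, beside 1.15% of all tested genes. The difference was above 0 for 23 of 30 members, with a median of 0.57 against -0.02 over all genes. It draws on the same LiK mice on the normal diet as the comparisons above. Without LiK normal 1 the members' median was 0.51, and 6 members had an unadjusted p under 0.05, as did 1271 of 14153 genes. With all mice the difference was 1.44 for Fasn (interval 0.15 to 2.73), 1.56 for Acly (0.14 to 2.98) and 1.49 for Elovl6 (-0.04 to 3.02), none past the threshold. With the LiKM pairing as a block 4 members passed, against 1.87% of all tested genes. They were Agpat2 (1.24, edgeR adjusted p = 0.00278), Elovl6 (1.55, edgeR adjusted p = 0.0161), Pklr (1.06, edgeR adjusted p = 0.021) and Cidec (-1.81, edgeR adjusted p = 0.0229). The fitted diet effect was higher in LiKM than in LiK for all of them but Cidec.

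Genes around the route were read from lists of pathway partners. Over all tested genes 8.61% were lower and 13.2% higher in LiKM when fed the normal diet, against 4.24% and 5.55% when fed ACR, so a single higher gene in any of these lists is a share below or near that of all genes. Of 18 control genes, 0 were higher and 3 lower in LiKM on the normal diet and 0 higher and 4 lower on ACR, with the lower ones at 16.7% and 22.2% of the list. Rxra, the retinoid X receptor that pairs with the oxysterol receptors, was lower on both (log2 fold change -0.47, edgeR adjusted p = 0.0169, and -0.70, edgeR adjusted p = 0.00744). Ppargc1b, a coactivator of SREBP-1, was lower as well (-0.63, edgeR adjusted p = 0.0494, and -1.26, edgeR adjusted p = 0.00606). Usf2, which binds the Fasn promoter, was the remaining one lower on both diets (-0.29, edgeR adjusted p = 0.0485, and -0.42, edgeR adjusted p = 0.0217). Of 15 genes of sugar entry and NADPH supply, 1 was lower on the normal diet, Idh1 (-0.52, edgeR adjusted p = 0.0101), which at 6.67% is below the share of all genes. On ACR 1 was higher, Tkfc, the triose kinase of fructose use (0.90, edgeR adjusted p = 0.0272), a share near that of all genes.

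Of 17 genes of the elongation cycle and of acyl-CoA formation, 1 was higher and 4 lower in LiKM on the normal diet, and 1 was higher and 2 lower on ACR, with the lower ones at 23.5% and 11.8% of the list. Elovl7 was the higher one, at a mean of 0.426 CPM in LiK and 6.88 in LiKM (log2 fold change 4.02, edgeR adjusted p = 0.000269). Hsd17b12 and Hacd3, both enzymes of the elongation cycle, were among the lower ones (-0.42, edgeR adjusted p = 0.0115, and -0.53, edgeR adjusted p = 0.0208). On ACR Elovl7 was higher again (3.00, edgeR adjusted p = 0.00553), and Fads6 (-0.95, edgeR adjusted p = 0.00735) and Hacd3 (-0.58, edgeR adjusted p = 0.0271) were lower. Of 10 other acyltransferases and lipins, 1 was higher and 2 lower on the normal diet, and 0 higher and 1 lower on ACR, with the lower ones at 20% and 10% of the list. Agpat9, now called Gpat3, was the higher one (1.81, edgeR adjusted p = 0.013). Agpat3 was lower on the normal diet (-0.39, edgeR adjusted p = 0.0209), and Lclat1 was lower on both diets (-0.48, edgeR adjusted p = 0.0183, and -0.55, edgeR adjusted p = 0.0192).

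Of 19 genes of droplets, lipolysis and export, 1 was higher and 4 lower on the normal diet, and 1 was higher and 3 lower on ACR. The lower ones made 21.1% and 15.8% of the list. Fabp4, the fatty acid binder of fat cells and macrophages, was higher on both diets (1.06, edgeR adjusted p = 0.00246, and 0.74, edgeR adjusted p = 0.0252). Macrophage markers higher on the normal diet were 2 of 12 (16.7%), near the 13.2% of all tested genes. On ACR they were 4 of 12 (33.3%), against 5.55% of all tested genes. Mttp, which loads triglyceride onto lipoproteins, was lower on the normal diet (-0.76, edgeR adjusted p = 0.0191), as was Fitm2, a protein of droplet formation (-0.94, edgeR adjusted p = 0.0294). Pnpla2, the first lipase of stored triglyceride, was lower on ACR, at a mean of 43.3 CPM in LiKM and 89.3 in LiK (-1.04, edgeR adjusted p = 0.00315), and so was Fitm1 (-2.10, edgeR adjusted p = 0.0301). For diet within either strain and for the difference of the diet effects, edgeR called none of the genes in these 5 lists.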

How the data were processed

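Per the labels' protocols, libraries came from a stranded kit for mRNA. The deposited values are expected counts per gene symbol, which need not be whole, and 18.9% of the values above 0 are not. featureCounts 2.0.0 and the build mm10 are named in the submitters' processing notes. No source used here gives the aligner, the annotation, the strand setting or the treatment of shared reads. All columns matched a sample title, and 0 did not.

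Expected counts were rounded, filtered with filterByExpr and scaled with TMM factors (0.83 to 1.24). edgeR 4.0.16 (R 4.3.3) fitted all 12 libraries with 1 coefficient per group by glmQLFit with robust estimation. The common biological coefficient of variation was 0.203. Benjamini-Hochberg adjustment ran over 13880 genes, at a threshold of 0.05. SE is the absolute log2 fold change over the square root of F, and intervals are 95%. DESeq2 1.42.0 was an alternative. The fitting was tested on simulated data. Replicates differed by more than sampling noise (chi-square per gene 15.8 to 65.5), so none was counted as a repeat. Titles number separate mice. Positions and exon lengths come from GENCODE M21 on mm10.

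The members and lists were chosen with earlier results of these data known. All 30 members were named, and up to 3 called genes of smallest p from each pathway list.

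Pairing was checked by the correlation across genes of deviations from group means. Same-numbered LiKM mice on the 2 diets gave 0.366, 0.217 and 0.485, against 0.0735 at most for other numbers, so the block by number within LiKM is printed beside the results. That choice rests on the counts to which the block was then fitted, so its adjusted p-values can be too small. In the other comparisons same-numbered mice gave -0.101 to 0.0768, and no label states what a number shares.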

Additional observations from a re-analysis of the deposited data

Results flagged for a closer look

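The strain difference of Agpat2 had opposite signs on the diets. On the normal diet the 3 LiKM mice lay below the 3 LiK mice and on ACR above them, a difference of the diet effects of 1.24 on the log2 scale, which was flagged because no libraries overlapped in either direction. The test of that difference gave an edgeR adjusted p of 0.0784, and over the alternatives it passed with DESeq2, with either replicate block, without LiKM ACR 3 (adjusted p = 0.0416) and without both LiKM mice numbered 3 (0.0315), a choice made after seeing the data.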

How the results depend on the processing

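LiKM against LiK on the normal diet gave 8 members, beside 21.8% of all tested genes called in either direction. Percentages below are shares of all tested genes called in the same fit. It gave 5 with library size alone (2 higher and 3 lower), beside 34.8%, and 5 with hepatocyte scaling (4 higher and 1 lower), beside 37.3%. The identifier prefix in the sample descriptions as a covariate gave 13, beside 22.7%. The replicate block within LiKM gave 15, beside 30.6%. Leaving out single mice gave 3 to 10. The lowest was without LiK normal 1, beside 11.7%, and the highest without LiKM ACR 1, beside 3100 of 14130 genes. LiKM against LiK on ACR gave 5, beside 9.79%, and 9 with the replicate block within LiKM, beside 17.8%. It gave 8 without LiKM normal 3 and LiKM ACR 3 (4 higher and 4 lower), beside 12.3%. Single mice left out gave 4 to 6, while calls over all genes ran from 312 to 1695. Leaving out LiKM ACR 2 as well left a single LiKM mouse on ACR, so counts of that fit are not given. ACR against normal diet in LiK gave 1, beside 0.195%. It gave 5 with DESeq2, beside 2.86%, and 8 with only the 2 groups in the fit, beside 6.34%. A replicate block over all groups gave 6, beside 3.97%, and the block within LiKM gave 7, beside 5.05%. Without LiKM normal 3 and LiKM ACR 3 the count was 7, beside 3.9%. Single mice left out gave 0 to 2, while calls over all genes ran from 0 to 108. In LiKM the diet gave 0 in all 23 alternatives. The difference of the diet effects gave 0, beside 0.0072%, then 1 with DESeq2, beside 1.15%, and 4 with either replicate block. Over all genes those blocks called 1.05% (all groups) and 1.87% (within LiKM). Without LiKM normal 3 and LiKM ACR 3 the count was 1, beside 0.374%. Single mice left out gave 0 to 1, the 1 without LiKM ACR 3, beside 20 of 14084 genes. LiKM normal 3 and LiKM ACR 3 were left out after seeing that Thrsp, Elovl6 and Lpin1 stand low there, so higher values of these genes without them follow from that choice and support nothing. The cause of these moves was not tested.

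Among members called with TMM or with hepatocyte scaling, the sign turned under hepatocyte scaling for Mlxipl and Slc25a1 on the normal diet. Mlxipl was then at 0.44 (edgeR adjusted p = 0.0421) and Slc25a1 at 0.11 (edgeR adjusted p = 0.657). That scaling moved the median of all tested genes on the normal diet from 0.02 to 0.59, and sign changes of uncalled members are not listed. Of the calls across all tested genes there, 60.6% were higher with TMM, 97.6% with library size alone and 99.2% with hepatocyte scaling. On ACR the shares were 56.7%, 77.9% and 94.7%. Scd1 lost its call on the normal diet in 16 of 23 alternatives and Me1 in 14.

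Depth was lowest for Cidec, with 38 counts in LiKM ACR 2. The intervals of Thrsp, Lpin1 and Pnpla3 were wide, with 3 mice per group whose values lay far apart. The prefix KM is carried by 9 libraries and MP by LiK normal 2, LiK normal 3 and LiKM ACR 3, so values within a prefix leave 1 LiK mouse on the normal diet, and no source used here states its meaning.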
